A study of Mus musculus with 8 samples.

Results

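The 4 genes described here encode subunits of the sodium-potassium pump (Na,K-ATPase): *Atp1a4*, 1 catalytic alpha subunit, and *Atp1b1*, *Atp1b2* and *Atp1b3*, the 3 beta subunits. They were taken by gene symbol from the RNA seq counts of mouse cochlea, as 4 of 47628 entries that name a gene, and the other catalytic alpha isoforms are not reported here. Whole cochleae of 4 wild-type (WT) mice (animals 4, 5, 6 and 8) and 4 heterozygous *Opa1*+/- mice (animals Het_2, Het_7, Het_484 and Het_491) were sequenced at 21 days of age, 1 library per mouse and without treatment. *Opa1*+/- mice carry, in all cells and from conception, 1 *Opa1* allele with the TTAG deletion found in human dominant optic atrophy. The line was made on a mixed C57BL/6J and 129 Sv/Pas background, which the WT mice share as littermates, and the comparison asks how RNA levels differ before any hearing loss.

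The Na,K-ATPase is the membrane pump that exports sodium and imports potassium at the cost of ATP. The alpha subunit binds the ions and splits ATP, while the glycosylated beta subunit brings the pump to the cell surface and tunes its affinity for potassium. In the cochlea, the pump in the marginal cells of the stria vascularis and in fibrocytes of the spiral ligament moves potassium towards the endolymph, and in spiral ganglion neurons it restores the ion gradients after firing. *Atp1b1* is the widely expressed beta subunit of epithelia and neurons, *Atp1b2* was first known as an adhesion molecule on glia, *Atp1b3* is present in many tissues, and *Atp1a4* is best known from sperm. RNA from a whole cochlea mixes all of these cells, so fewer cells of a type and less RNA per cell cannot be told apart.

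All 4 genes are protein coding and are read from the minus strand in the GENCODE vM21 annotation of GRCm38. *Atp1b1* (ENSMUSG00000026576.12) lies on chromosome 1 from 164437109 to 164458355, with 3081 bases of merged exons. *Atp1a4* (ENSMUSG00000007107.6) lies on the same chromosome from 172223513 to 172258414, with 3667 bases of exons. *Atp1b3* (ENSMUSG00000032412.8) lies on chromosome 9 from 96332655 to 96364442 and has 2389 bases of exons, and *Atp1b2* (ENSMUSG00000041329.13) lies on chromosome 11 from 69599736 to 69605942 and has 4085. The last exon of *Atp1b1* shares 617 bases, from 164437109 to 164437725, with *Nme7* on the opposite strand. The use of strand in counting is not given in the sources used here, and *Nme7* held 202 to 319 counts per mouse against 14638 to 21659 for *Atp1b1*. The antisense gene *Gm37950*, inside *Atp1a4* but outside its exons, had 0 counts in all mice.

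The 250 bases before the RefSeq start of *Atp1b1*, *Atp1b3* and *Atp1a4* are shown from 5′ to 3′ on the minus strand (RefSeq, GRCm38.p6), because the 2 beta genes varied together across mice and the alpha gene did not. *Atp1b2* is given by name only. Capitals mark matches on either strand to the GC box (GGGCGG), the TATA box (TATAAA), the CCAAT box (CCAAT) or the E-box (CACGTG). The windows lie at chr1:164458356-164458605, chr9:96364432-96364681 and chr1:172258425-172258674.
Atp1b1: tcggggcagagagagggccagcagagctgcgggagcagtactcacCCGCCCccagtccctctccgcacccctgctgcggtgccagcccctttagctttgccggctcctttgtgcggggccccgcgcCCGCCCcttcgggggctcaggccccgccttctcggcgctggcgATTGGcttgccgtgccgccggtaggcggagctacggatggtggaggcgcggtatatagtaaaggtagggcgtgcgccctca
Atp1b3: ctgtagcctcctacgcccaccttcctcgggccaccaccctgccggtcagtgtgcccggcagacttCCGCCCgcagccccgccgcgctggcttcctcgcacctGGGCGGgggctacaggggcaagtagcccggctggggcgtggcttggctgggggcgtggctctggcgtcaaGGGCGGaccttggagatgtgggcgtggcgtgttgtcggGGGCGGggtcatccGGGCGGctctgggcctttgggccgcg
Atp1a4: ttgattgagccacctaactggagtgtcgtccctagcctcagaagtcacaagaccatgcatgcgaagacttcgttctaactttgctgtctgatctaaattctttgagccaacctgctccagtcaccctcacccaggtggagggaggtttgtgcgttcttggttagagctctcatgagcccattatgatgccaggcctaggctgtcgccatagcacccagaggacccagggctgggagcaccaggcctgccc
The *Atp1b1* window held 2 GC boxes and 1 CCAAT box, read there as its reverse complement, and the *Atp1b3* window held 5 GC boxes. The *Atp1a4* window held none of the 4 motifs. Among 32851 promoter windows of the same length, 32.7% held a GC box, 33.8% a CCAAT box, 12.4% a TATA box and 6.02% an E-box, so single matches are common. Both beta windows were rich in CpG, with 24 CpG each and a GC content of 70.4% for *Atp1b1* and 73.6% for *Atp1b3*, against a median of 6 CpG and 52.4% GC over all windows. The *Atp1a4* window held 5 CpG at 54.8% GC, and 44.4% of all windows held fewer, against 88.0% for each beta window.

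The WT libraries held between 17001431 and 20828030 counts on named genes, and those of *Opa1*+/- mice between 15978051 and 20204154. *Opa1* itself, the check of the labels, averaged 119.7 CPM in WT (SD 6.09, n = 4) against 65.57 CPM in *Opa1*+/- mice (SD 4.42, n = 4), with no overlap between genotypes. CPM are counts on a gene relative to all counts of its library, scaled between libraries by TMM. Among the WT mice, mouse 4 stood apart in marrow and fibrocyte markers and mouse 6 in skeletal muscle markers. Values without them are given beside the fold changes of the beta subunits and the correlations between subunits. For the correlations they were left out because they held the lowest and highest levels of the beta subunits.

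Compared per kilobase of exon, the beta subunits were among the most abundant RNAs of the cochlea and *Atp1a4* was not. The mean level over the 8 mice was 312 CPM per kb for *Atp1b1*, rank 110 of 18651 tested genes with an exon length, 142 for *Atp1b3* (rank 284) and 87.3 for *Atp1b2* (rank 520). *Atp1a4* stood at 2.56 CPM per kb, above 36.1% of those genes. The order *Atp1b1*, *Atp1b3*, *Atp1b2*, *Atp1a4* was the same in each of the 8 mice. Between mice only *Atp1b3* and *Atp1b2* came close: the highest *Atp1b2* level in WT, 127.5 CPM per kb in mouse 6, passed the lowest *Atp1b3* level in WT, 124.2 in mouse 4. With the longest coding transcript as the length, a choice made after the data were seen, the means were 372, 170, 125 and 2.71 CPM per kb in that order.

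No subunit passed the test between genotypes. None of the 4 reached an adjusted p of 0.05 with edgeR's quasi-likelihood test, against 0.0258% of the 19366 genes tested, and none had an unadjusted p under 0.05, against 6.72% of all genes (3.51% higher and 3.22% lower in *Opa1*+/- mice). DESeq2's Wald test also called none of them at either threshold, against 0.119% of genes called at the adjusted and 5.62% at the unadjusted threshold (2.76% higher and 2.85% lower). The 3 beta subunits had lower and *Atp1a4* a higher fitted level in *Opa1*+/- mice, with a median log2 fold change of −0.12 over the 4 members and 0.000395 over all genes tested. The direction did not hold under every alternative. With the summed CPM of erythroid marker genes as a covariate, *Atp1b2* and *Atp1b3* turned to 0.10 and 0.0055, and *Atp1b1* was −0.0088. The genotypes overlapped for all 4 members, whereas 4.31% of all genes showed no overlap, 1.98% with the higher values in *Opa1*+/- mice and 2.33% with the lower.

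*Atp1b1* measured 869.9, 948.1, 1126 and 1060 CPM in WT mice 4, 5, 6 and 8, and 923.9, 894.5, 905.9 and 954.6 CPM in *Opa1*+/- mice Het_2, Het_7, Het_484 and Het_491. The WT values spread on both sides of the *Opa1*+/- values, which lay close together. The means were 1001 ± 114 and 919.7 ± 26.2 CPM (SD, n = 4 each). The fitted log2 fold change was −0.12 with SE 0.0842 and an adjusted p of 0.796 (edgeR), a difference of −8.12% with a 95% interval from −19.4% to 4.75%. It reached −0.18 when WT mouse 4 was left out and −0.061 when WT mouse 6 was, neither of which passed (edgeR adjusted p of 0.459 and 0.841). With the erythroid marker sum as a covariate it was near 0, at −0.0088 (edgeR adjusted p of 0.999).

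*Atp1b3*, the other widely expressed beta subunit, measured 296.7, 340.3, 411.6 and 359.6 CPM in WT mice 4, 5, 6 and 8, and 324.8, 310.4, 324.5 and 339.9 CPM in *Opa1*+/- mice Het_2, Het_7, Het_484 and Het_491. As for *Atp1b1*, mouse 4 was the lowest and mouse 6 the highest of all 8. WT mice averaged 352.1 ± 47.6 CPM and *Opa1*+/- mice 324.9 ± 12 CPM (SD, n = 4 per genotype). The log2 fold change was −0.12 with SE 0.0943 and an adjusted p of 0.831 by edgeR, a difference of −7.71% with an interval from −20.3% to 6.87%. Leaving out WT mouse 4 gave −0.19 and leaving out WT mouse 6 gave −0.032, with edgeR adjusted p of 0.459 and 0.910. With the erythroid marker sum as a covariate the direction turned, to 0.0055 (edgeR adjusted p of 0.999).

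*Atp1b2*, the beta subunit of glia and stria, varied most among the beta subunits. Its levels were 262.5, 397.5, 521.0 and 362.1 CPM in WT mice 4, 5, 6 and 8, and 361.2, 376.0, 284.6 and 288.3 CPM in *Opa1*+/- mice Het_2, Het_7, Het_484 and Het_491. Within *Opa1*+/- mice the pair with 3-digit numbers lay below the other pair, and WT mouse 4 lay below them all. The means were 385.7 ± 107 and 327.5 ± 47.8 CPM (SD, n = 4 each). The log2 fold change was −0.24 with SE 0.188 and an adjusted p of 0.83 (edgeR), a difference of −15.1% with an interval from −36.6% to 13.8%. Leaving out mice gave −0.38 (WT mouse 4), −0.057 (WT mouse 6) and −0.066 (both *Opa1*+/- mice of 3-digit number), none past the threshold (edgeR adjusted p of 0.449, 0.920 and 1). The erythroid marker sum as a covariate turned it to 0.10, and strial marginal cell markers as a covariate left −0.047 (edgeR adjusted p of 0.967 and 0.965).

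*Atp1a4*, the alpha subunit, was low but counted in every mouse, with 136 to 249 counts. It measured 9.65, 7.18, 9.02 and 8.62 CPM in WT mice 4, 5, 6 and 8, and 8.75, 12.5, 8.42 and 11.1 CPM in *Opa1*+/- mice Het_2, Het_7, Het_484 and Het_491. Mice Het_7 and Het_491 lay above all WT mice and the other *Opa1*+/- mice lay within the WT range. The means were 8.62 ± 1.05 and 10.2 ± 1.94 CPM (SD, n = 4 per genotype). The fit gave 0.25 on the log2 scale with SE 0.153 and an adjusted p of 0.785 (edgeR), a difference of 18.5% with an interval from −6.54% to 50.3%. Without *Opa1*+/- mouse Het_7 the log2 fold change was 0.13 (edgeR adjusted p of 0.872).

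**Figure D1:**
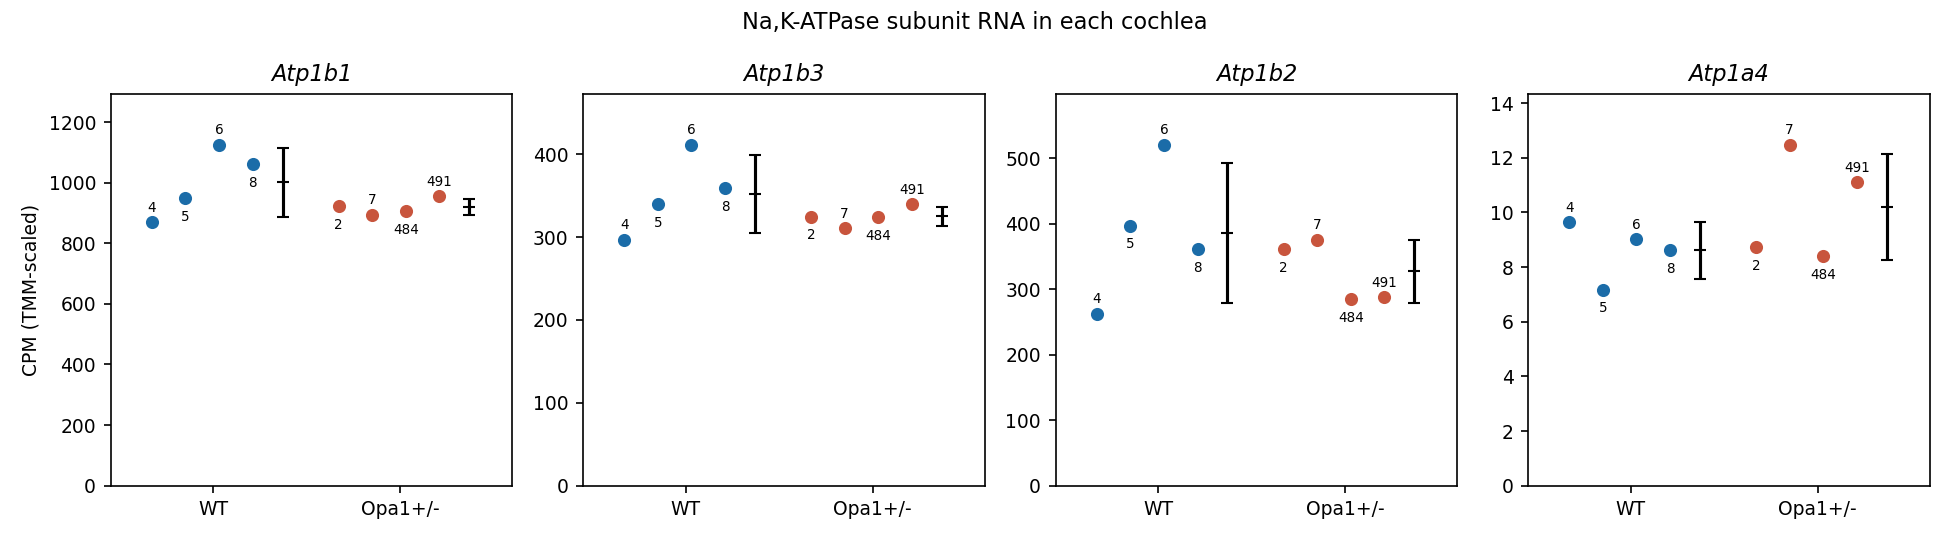
CPM of each subunit (y axis, from 0, a scale of its own per gene) in each mouse of the 2 genotypes (x axis). Points are mice with their animal numbers and bars are the mean ± SD of 4 mice. The *Atp1b1*, *Atp1b2* and *Atp1b3* values of WT mice span those of *Opa1*+/- mice, with mouse 6 highest and mouse 4 lowest.

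Counting error was largest for *Atp1a4*. Its exact 95% Clopper-Pearson intervals reached 13% to 17% of the level, so that 7.18 CPM in WT mouse 5 had an interval from 6.06 to 8.44 and 12.5 CPM in *Opa1*+/- mouse Het_7 one from 11.0 to 14.1. For the beta subunits the intervals reached 1.3% to 2.9%, while the coefficient of variation between WT mice was 11.4% for *Atp1b1*, 13.5% for *Atp1b3* and 27.7% for *Atp1b2*. Between *Opa1*+/- mice it was 2.85%, 3.71% and 14.6% for these genes, and 19.1% against 12.2% in WT for *Atp1a4*. The difference in spread between genotypes was not tested. The intervals cover counting error only.

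The share of *Atp1b3* in the beta RNA was nearly the same in all mice, while that of *Atp1b2* varied. *Atp1b1* made up 57.53% ± 2.36 of the beta RNA per kilobase in WT and 58.0% ± 1.26 in *Opa1*+/- mice, *Atp1b3* made up 26.03% ± 0.252 and 26.43% ± 0.929, and *Atp1b2* made up 16.45% ± 2.49 and 15.57% ± 2.18 (SD, n = 4 each). Within each mouse the count of *Atp1b3* stood at 0.339 to 0.366 of that of *Atp1b1*, although *Atp1b1* itself ran from 869.9 to 1126 CPM. The mean of this ratio was 0.351 ± 0.0131 in WT and 0.353 ± 0.00498 in *Opa1*+/- mice (SD, n = 4 each), with overlapping ranges. The count of *Atp1b2* per *Atp1b1* count was less steady. It was 0.302, 0.419, 0.463 and 0.341 in WT mice 4, 5, 6 and 8 and 0.391, 0.420, 0.314 and 0.302 in *Opa1*+/- mice Het_2, Het_7, Het_484 and Het_491. WT mouse 4 and the *Opa1*+/- mice Het_484 and Het_491 had the 3 lowest values, so the order did not follow genotype. The 3 beta subunits summed to 1739 CPM in WT (SD 260, n = 4) and to 1572 CPM in *Opa1*+/- mice (SD 40.3, n = 4).

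**Figure D2:**
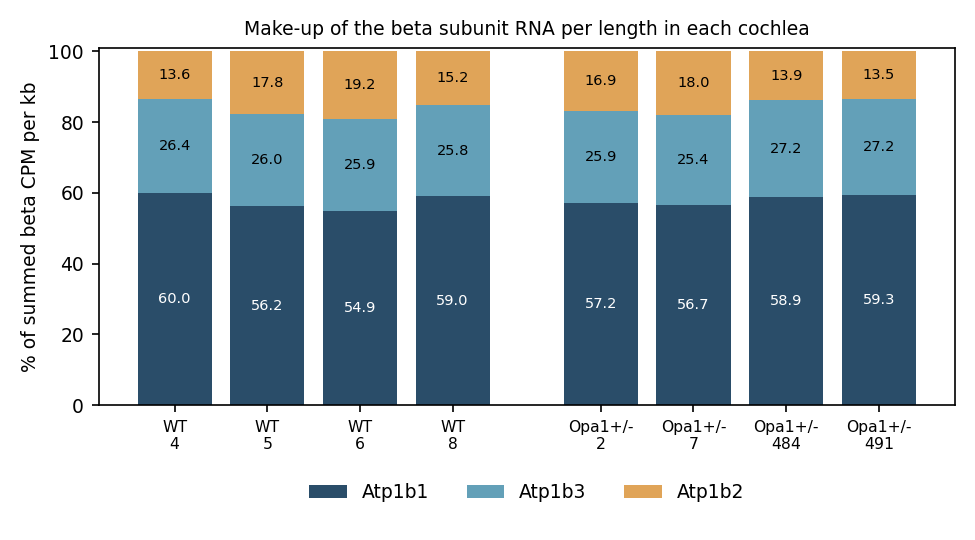
Share of each beta subunit in the summed beta CPM per kb (y axis, percent) in each mouse (x axis, genotype and animal number). The *Atp1b3* share lies between 25.4% and 27.2% in all mice, while the *Atp1b2* share runs from 13.5% to 19.2%.

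Across the 8 mice, *Atp1b1* and *Atp1b3* varied together and *Atp1a4* varied apart from the beta subunits. On log2 CPM, Pearson's r between *Atp1b1* and *Atp1b3* was 0.968 (Spearman's rho 0.976), and it was 0.967 on deviations from the genotype means. *Atp1b2* followed less closely, with r of 0.728 with *Atp1b1* and 0.764 with *Atp1b3*, and 0.684 and 0.728 on deviations from the genotype means. Without WT mice 4 and 6, an alternative chosen after the data were seen, r over the other 6 was 0.154 and 0.023. *Atp1b1* and *Atp1b3* still had r of 0.939. The mice left out held the lowest and highest levels of all 3 beta subunits. Leaving out extremes narrows the range and tends to lower r, so it cannot show that a relation rested on them. *Atp1a4* had r of −0.25, −0.20 and −0.29 with *Atp1b1*, *Atp1b2* and *Atp1b3*, between −0.12 and −0.0098 on deviations from the genotype means, and −0.30, −0.22 and −0.48 without WT mice 4 and 6. These coefficients describe genes counted in the same 8 libraries and carry no p.

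The genes most like each subunit across mice were ranked by the same coefficient among 13569 genes with a mean normalized count over 100. For *Atp1b1* they were *Elavl1* (0.971), *Slc35e2* (0.970), *Atp1b3* (0.968), *Plekha8* (0.967) and *Frmd4b* (0.967). For *Atp1b3* they were *Zkscan17* (0.978), *Zfp574* (0.972), *Atp1b1* (0.968), *Asb8* (0.964) and *Frmd4b* (0.962). Each of these beta subunits was thus among the 5 genes closest to the other, and *Frmd4b* was on both lists. The closest genes to *Atp1b2* were *Tacc1* (0.975), *Cpsf7* (0.964), *Plekhg1* (0.960), *Med13l* (0.959) and *Mus81* (0.959), and none of them was shared with the other beta subunits. For *Atp1a4* they were *Fam43b* (0.962), *Gm10290* (0.955), *Dagla* (0.951), *Fxyd5* (0.934) and *Gm15191* (0.930), of which *Fxyd5* belongs to the family of small membrane proteins that regulate the pump. Without WT mice 4 and 6 the 5 coefficients lay between 0.915 and 0.953 for *Atp1b1*, 0.838 and 0.947 for *Atp1b3*, 0.874 and 0.926 for *Atp1b2*, and 0.939 and 0.982 for *Atp1a4*. The genes were picked as the highest of 13569 coefficients over only 8 mice, so high values follow from the selection. Values from part of the same mice are no independent check, and whether any of these genes is related to a subunit was not tested.

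Because the pump sits in several cell types, summed CPM of 14 marker lists were set beside the subunits. None of the sums passed the test between genotypes (exact two-sided permutation test over 70 arrangements, smallest possible p 0.0286, all adjusted p at least 0.923), and no marker was at 0 in all mice. The strial marginal cell markers, which share genes with the potassium secretion list, gave 584.1 ± 149 CPM for WT against 502.0 ± 76.1 for *Opa1*+/- mice. Spiral ganglion neuron markers were at 6378 ± 464 and 6272 ± 465 CPM, Schwann and satellite glia markers at 6763 ± 891 and 7441 ± 848, and spiral ligament fibrocyte markers at 4248 ± 560 and 3986 ± 466 (SD, n = 4 each). The labelled tissue was thus represented by its neurons, glia, stria and ligament. The neuron sum hid differences between genes in WT mouse 6. There *Prph* was at 76.1 CPM against 231.2 to 344.5 in the other WT mice, and *Stmn2* at 192.5 against 327.3 to 441.7. *Nefh*, at 1581 CPM against 1042 to 1353, and *Slc17a7*, at 97.7 against 64.6 to 85.9, went the other way. Markers from outside the cochlear duct were also plentiful, with erythroid markers at 7750 to 21470 CPM in WT and 15080 to 25070 in *Opa1*+/- mice. The fitted level was higher in *Opa1*+/- mice for 10 of 10 erythroid, 11 of 11 Schwann and satellite glia, 5 of 5 central glia and 5 of 5 endothelial genes tested, and for 0 of 11 skeletal muscle genes, with median log2 fold changes of 0.55, 0.18, 0.17, 0.08 and −0.70. The other lists were mixed. It was higher for 1 of 6 strial marginal, 2 of 7 strial intermediate, 7 of 12 neuron and 3 of 9 hair cell genes. The counts were 2 of 5 for fibrocyte, 2 of 6 for supporting cell, 4 of 9 for marrow, 5 of 7 for macrophage and 4 of 10 for bone genes. Over all genes tested it was higher for 9709 of 19366. Genes of a list share the same tissue and libraries, so they are not independent. The supporting cell sum was 146.3 ± 41.1 and 144.1 ± 21.4 CPM, the strial intermediate cell sum 244.5 ± 81.1 and 265.0 ± 51.3, and the central glia sum 254.6 ± 99.6 and 262.7 ± 55.3. Bone markers reached 2933 ± 288 and 2720 ± 358 CPM, skeletal muscle markers 973.5 ± 1040 and 636.2 ± 572, macrophage markers 122.9 ± 28.1 and 129.3 ± 17.5, and endothelial markers 216.6 ± 11.8 and 230.9 ± 19.1 (SD, n = 4 each, WT first). The WT muscle mean was raised by mouse 6, at 2512 CPM against 275.5 to 623.7 in the other WT mice. The sums of those other mice lay within the *Opa1*+/- range of 31.21 to 1285 CPM. The lower muscle level in *Opa1*+/- mice therefore depended on WT mouse 6.

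Of the 56 relations between a subunit and a marker sum, 3 passed the adjusted threshold with Pearson's r and 2 of these also with Spearman's rho, *Atp1b1* and *Atp1b3* with the hair cell markers. The third, *Atp1b2* with the neutrophil and marrow markers (adjusted exact permutation p of 0.0435 for r and 0.135 for rho), was negative and is given with the marrow values because its mice fell into separate sets. Its p pools these sets and is not read as a graded relation across mice. The hair cell sum was 207.2, 258.0, 292.4 and 272.0 CPM in WT mice 4, 5, 6 and 8 and 246.8, 234.3, 246.7 and 249.4 CPM in *Opa1*+/- mice Het_2, Het_7, Het_484 and Het_491, in nearly the same order as these subunits. For *Atp1b3*, r was 0.944 (exact permutation p 0.000719, adjusted 0.0201) and rho was 1.0 (exact permutation p 5e-05, the smallest the pairings allow, adjusted 0.00278). For *Atp1b1*, r was 0.908 (exact permutation p 0.00062, adjusted 0.0201) and rho was 0.976 (exact permutation p 0.000397, adjusted 0.0111). Without WT mice 4 and 6, the farthest from the median sum, r was 0.965 for *Atp1b3* and 0.925 for *Atp1b1*, and on deviations from the genotype means it was 0.954 and 0.934. The sum was led by *Myo6*, a motor protein not limited to hair cells, at 110.3 to 153.4 CPM, and *Otof*, needed for transmitter release by inner hair cells, at 28.8 to 56.0 CPM. *Slc26a5*, the motor protein of outer hair cells, stood at only 1.24 to 3.27 CPM. Whether hair cells have a part in these relations was not tested.

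The strial marginal cell sum had r of 0.750, 0.761 and 0.797 with *Atp1b1*, *Atp1b2* and *Atp1b3*, with exact permutation p of 0.0311, 0.0267 and 0.0153 and an adjusted p of 0.158 for each. Within *Opa1*+/- mice alone r was −0.618, −0.0898 and −0.365, so the direction did not hold there. Without WT mice 4 and 6, which had the lowest and highest strial marginal cell sums, r was 0.353, 0.298 and 0.361. Leaving out these extremes narrows the range, so the drop cannot show that the relations rested on them. With this sum as a covariate the log2 fold changes between genotypes were −0.064, −0.047 and −0.040, with edgeR adjusted p of 0.878, 0.965 and 0.936. *Atp1b2* and the supporting cell markers had r of 0.883 (exact permutation p 0.00486, adjusted 0.068), and 0.608 without the same mice. The spiral ganglion neuron sum had r between −0.25 and 0.16 with the beta subunits and 0.557 with *Atp1a4* (exact permutation p 0.154, adjusted 0.359), which was 0.109 without WT mouse 5 and *Opa1*+/- mouse Het_491.

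Over all 8 mice the erythroid markers ran the other way. Their sum had r of −0.79, −0.79 and −0.70 with *Atp1b1*, *Atp1b2* and *Atp1b3*, with exact permutation p of 0.022, 0.0194 and 0.0466 and adjusted p of 0.158, 0.158 and 0.206. Without WT mice 6 and 8, r was −0.129 for *Atp1b1*, −0.889 for *Atp1b2* and −0.172 for *Atp1b3*. Within *Opa1*+/- mice the direction did not hold for *Atp1b1* and *Atp1b3*, since mouse Het_491 had the highest erythroid sum, 25070 CPM, and the highest level of both. With the erythroid sum as a covariate, the fitted log2 fold change of *Atp1b2* turned to 0.10 and that of *Atp1b3* to 0.0055, and that of *Atp1b1* was −0.0088, with edgeR adjusted p of 0.967, 0.999 and 0.999. Neutrophil and marrow markers fell into separate sets of mice, so the pooled coefficient is not printed. The pooled p given above is not read as a graded relation across mice, and the relation within a set was not tested. WT mouse 4 and *Opa1*+/- mice Het_484 and Het_491 had sums of 1403, 844.3 and 1163 CPM, and the other 5 mice had sums between 426.7 and 521.8. The 3 mice with high sums had the 3 lowest *Atp1b2* levels, from 262.5 to 288.3 CPM, while the other mice measured 361.2 to 521.0 CPM. The part of blood and marrow in these values was not tested.

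**Figure D3:**
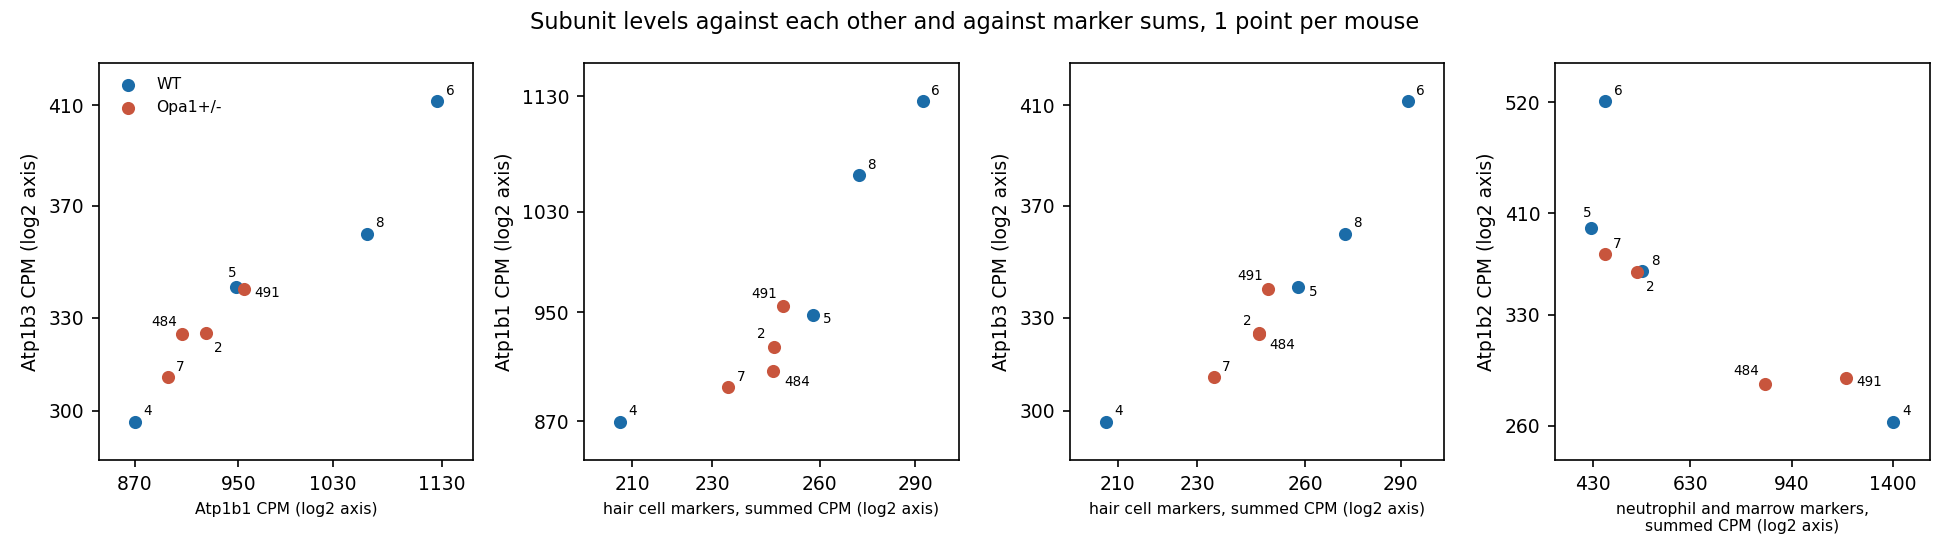
Levels of 2 subunits, or of a subunit and a marker sum, in each mouse (CPM on log2 axes, 1 point per mouse with its animal number, coloured by genotype). *Atp1b3* is higher in the mice with more *Atp1b1* and more hair cell marker RNA, and *Atp1b2* is lowest in the 3 mice with the highest neutrophil and marrow sums.

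**Figure D4:**
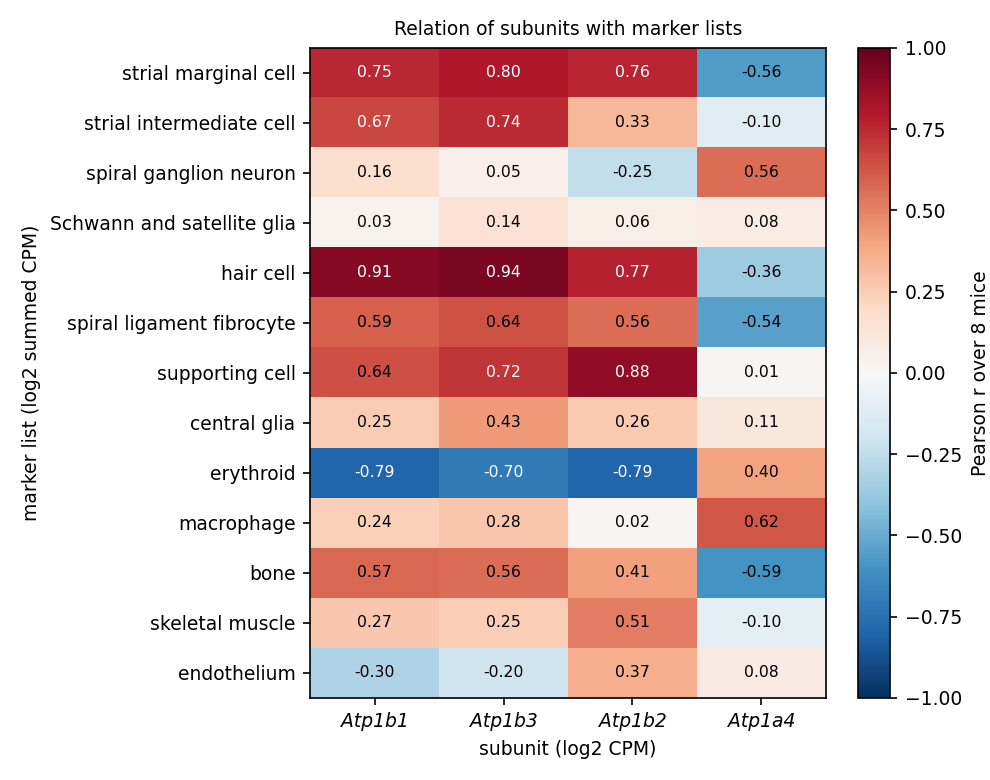
Pearson's r over 8 mice between log2 CPM of each subunit (x axis) and the log2 summed CPM of each marker list (y axis), with the neutrophil and marrow list left out because its mice fell into separate sets. The hair cell row holds the highest values for *Atp1b1* and *Atp1b3*, 0.91 and 0.94, and the supporting cell row the highest of those shown for *Atp1b2*, 0.88.

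Of 48 genes that regulate, anchor or work beside the pump, 39 were tested, none passed the adjusted threshold with edgeR, against 0.0258% of all genes, and 2 had an unadjusted p under 0.05, a share no higher than the 6.72% of all genes. All 6 tested FXYD proteins, the small regulators of the pump, had a higher fitted level in *Opa1*+/- mice, with a median log2 fold change of 0.10, and *Fxyd4* was too low to test. *Fxyd1*, or phospholemman, was at 93.2, 92.5, 106.3 and 97.3 CPM in WT mice 4, 5, 6 and 8 and at 121.4, 125.3, 120.8 and 132.8 CPM in *Opa1*+/- mice Het_2, Het_7, Het_484 and Het_491. All *Opa1*+/- mice lay above all WT mice. The fitted log2 fold change was 0.36 with SE 0.065, an unadjusted p of 0.000289 and an adjusted p of 0.32 with edgeR, and DESeq2's Wald test called it with an adjusted p of 0.000586. *Fxyd7*, a brain regulator of the pump, was at 28.3 ± 6.4 and 33.5 ± 5.53 CPM (SD, n = 4 each, edgeR adjusted p 0.807).

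The second gene with a low unadjusted p was *Nr3c2*, the mineralocorticoid receptor through which aldosterone controls pump genes, which averaged 38.8 CPM among WT (SD 4.45, n = 4) and 32.5 CPM among *Opa1*+/- mice (SD 3.61, n = 4). It had a log2 fold change of −0.26 with SE 0.102, an unadjusted p of 0.0321 and an adjusted p of 0.722 with edgeR, and the genotypes overlapped. In its list of 11 anchoring and hormonal genes, 10 were tested, 3 with a higher and 7 with a lower fitted level, with a median log2 fold change of −0.024. The spectrins *Sptan1* and *Sptbn1*, part of the scaffold that holds the pump at the membrane, had the highest levels per kilobase of that list and log2 fold changes of −0.02 and 0.03 (edgeR adjusted p of 0.964 and 0.944).

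Of the 8 genes of strial potassium secretion, 7 were tested, 6 with a lower fitted level in *Opa1*+/- mice, and the median log2 fold change was −0.15. *Slc12a2*, the cotransporter that brings sodium, potassium and chloride into marginal cells beside the pump, averaged 439.3 CPM among WT (SD 110, n = 4) and 372.0 CPM among *Opa1*+/- mice (SD 51.5, n = 4), with a log2 fold change of −0.24, SE 0.179 and an edgeR adjusted p of 0.818. *Kcnj10*, the potassium channel of intermediate cells, was at 192.9 ± 43.0 and 192.7 ± 17.8 CPM (edgeR adjusted p 0.998). Of 14 genes for sodium entry and sodium-coupled exchange, 13 were tested, 3 with a higher and 10 with a lower fitted level, with a median of −0.042. *Slc24a2*, a sodium and potassium dependent calcium exchanger, had a log2 fold change of −0.26 (edgeR adjusted p of 0.835). Of 8 related pumps and pump-interacting proteins, only 3 were tested, among them *Nkain2* and *Nkain4*, which bind beta subunits, with log2 fold changes of 0.06 and 0.16 (edgeR adjusted p of 0.956 and 0.911), and the gastric proton pump genes *Atp4a* and *Atp4b* were among those too low to test.

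**Figure D5:**
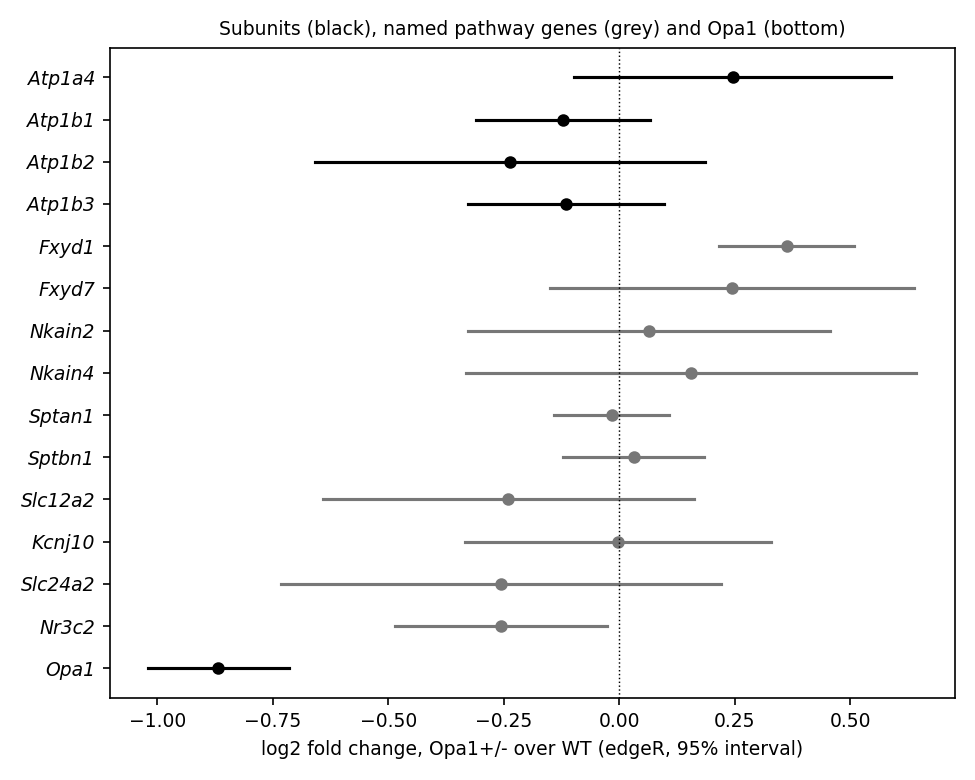
Log2 fold change of *Opa1*+/- over WT (x axis) with its 95% interval from edgeR for the 4 subunits (black), named pathway genes (grey) and *Opa1* (bottom). The intervals of all 4 subunits include 0, and those of *Fxyd1*, *Nr3c2* and *Opa1* do not.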

How the data were processed

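Cochlear RNA of 4 WT and 4 *Opa1*+/- mice was analysed, with genotypes from the labels. From CORALL libraries the authors read both ends over 80 nucleotides, mapped with STAR to GRCm38 and used molecular identifiers. They deposited 1 table of raw counts per mouse, whole numbers per gene. RNA was extracted with TRI Reagent and NucleoSpin columns per the study's methods, while the labels name TRI Reagent or an RNeasy kit, with no kit per mouse. The counts came from the CORALL analysis pipeline, whose counter and strand setting are not given in the sources used here. Entries named by a number (15, 0.112% to 0.124% of counts) were left out.

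Genes with a mean normalized count over 10 (19366) were tested with edgeR 4.0.16 (TMM, quasi-likelihood, Benjamini-Hochberg), and DESeq2 1.42.0 and limma 3.58.1 served as alternatives, under R 4.3.3. The edgeR script was tested on simulated data. Single sums were compared by exact permutation, and correlations were adjusted over 56 relations. Exon lengths came from GENCODE vM21.

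Named are the 4 members, *Opa1*, pathway genes by lowest unadjusted p under 0.05 (up to 10) or highest level per length (2 per list), and the 5 genes most correlated with each member. The neighbours *Nme7* and *Gm37950* and, of the markers and pathway lists, *Myo6*, *Otof*, *Slc26a5*, *Fxyd4*, *Atp4a* and *Atp4b* were named after their values were seen. The same holds for the markers *Tmc1*, *Ocm*, *Lhfpl5*, *Prph*, *Stmn2*, *Nefh* and *Slc17a7*. The members and lists were chosen with earlier results of these data known. Some genes are not reported here. P-values measure the spread between mice.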

Additional observations from a re-analysis of the deposited data

Results flagged for a closer look

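Of 64 groups of 4 mice examined for a single value far from the others, 3 were marked, where chance marks about 1 in 20, and none of them was a subunit level. All lie in marker sums of WT mice. The neutrophil and marrow sum of WT mouse 4 was 1403 CPM, against 426.7 to 521.8 in the other WT mice, and its *Atp1b2* level was the lowest of all mice. The spiral ligament fibrocyte sum of WT mouse 4 was 3415 CPM, against 4433 to 4618 in the others. The skeletal muscle sum of WT mouse 6, which had the highest level of all 3 beta subunits, was 2512 CPM, against 275.5 to 623.7 in the others. The part of these tissues in the subunit levels was not tested.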

How the results depend on the processing

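None of the 4 subunits passed the adjusted threshold under any of 21 alternatives, among them DESeq2, voom and a threshold of 0.1. *Atp1a4* had a higher and *Atp1b1* a lower fitted level under all 20 alternatives that give a fold change, but with the erythroid marker sum as covariate *Atp1b1* was near 0 (log2 fold change −0.0088, edgeR adjusted p 0.999). Direction turned with that covariate for *Atp1b2* (log2 fold change 0.10) and *Atp1b3* (0.0055), and the cause was not tested. The strial covariate left −0.064 for *Atp1b1*, −0.047 for *Atp1b2* and −0.040 for *Atp1b3*. Leaving out each mouse in turn gave log2 fold changes of 0.13 to 0.33 for *Atp1a4*, −0.18 to −0.061 for *Atp1b1*, −0.38 to −0.057 for *Atp1b2* and −0.19 to −0.032 for *Atp1b3*, with 0 subunits called each time. Over all genes, 5 were called in the main comparison, 23 with DESeq2, 10 with voom, 10 with robust estimation, 12 without a filter, 11 at 0.1, 1 with the strial and 0 with the erythroid covariate, and 0 to 9 with 1 mouse left out. No paired analysis by litter was possible because the labels give no litter for the mice. For *Atp1a4*, at 136 to 249 counts per mouse, counting error limits what could be detected.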
